A study of Mus musculus with 426 samples.

Results

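The genes described here are the 44 collagen chain genes of the mouse, taken as every gene of the RNA file whose symbol is Col, a number, a and a number (44 of 24424 genes). By the kind of molecule their chains build, 11 encode fibrillar collagens, 8 encode basement membrane collagens and 25 encode other collagens, among them 6 beaded filament chains (type VI), 9 chains of fibril-associated types and 3 network chains. The RNA came from a mouse model of pancreatic cancer in which each cell gave both an RNA and a DNA library. Each tumour was grown from 50000 cells of KPC1199-EGFP (a mouse line of pancreatic tumour cells marked with green fluorescent protein, GFP) placed in matrigel in the pancreas of C57BL/6 males aged 6 to 8 weeks and left for 6 to 8 weeks. All tumours thus come from a single transplanted line in otherwise normal hosts. Tissue was taken apart with collagenase D and trypsin, and live cells were sorted. The groups were primary tumour cells sorted by CD45 (the pan-leukocyte surface protein; 56 cells analysed), by EpCAM (an epithelial surface protein; 25 cells) and by GFP and EpCAM together (31 cells), GFP+ cells of metastases in the peritoneum (85 cells), kidney (44), liver (16) and spleen (35), and GFP+ cells of the primary tumour (76). Peritoneal and primary tumour cells came from 3 mice, kidney, liver and spleen cells from mice 2 and 3. The replicate is the mouse, so p-values measure the spread between at most 3 animals.

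Collagens are extracellular proteins in which chains wind into a triple helix. Fibrillar types such as I, III and V form the tensile fibres of connective tissue, type IV forms the sheet of the basement membrane on which epithelia rest, and type VI forms thin beaded filaments around cells. In the pancreas, fibrillar collagen is known as a product of fibroblasts and stellate cells, and pancreatic carcinoma is known for its dense fibrous stroma. Making a chain also takes enzymes that hydroxylate it, the chaperone Hsp47 (Serpinh1) and proteases that trim the secreted procollagen.

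The upstream sequences of 3 genes are shown because the results turn on them. Col1a2 varied between cells in its share of the reads of it and its partner, and Col3a1 and Col6a1 passed the test below. Each is the 250 bases before the annotated start in RefSeq, build GRCm38.p6, read on the gene's own strand. Capitals mark the motif CCAAT, the motif TATAAA or the motif GGGCGG. Both strands were searched, and matches may overlap. Col1a2 lies at chr6:4505368-4505617 on the + strand, Col3a1 at chr1:45311288-45311537 on the + strand and Col6a1 at chr10:76726045-76726294 on the - strand.
Col1a2: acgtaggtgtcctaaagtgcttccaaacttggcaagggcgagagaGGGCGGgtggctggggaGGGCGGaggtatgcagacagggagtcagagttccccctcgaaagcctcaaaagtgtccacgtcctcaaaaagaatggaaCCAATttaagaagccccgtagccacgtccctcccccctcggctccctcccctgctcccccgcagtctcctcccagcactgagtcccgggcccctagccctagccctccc
Col3a1: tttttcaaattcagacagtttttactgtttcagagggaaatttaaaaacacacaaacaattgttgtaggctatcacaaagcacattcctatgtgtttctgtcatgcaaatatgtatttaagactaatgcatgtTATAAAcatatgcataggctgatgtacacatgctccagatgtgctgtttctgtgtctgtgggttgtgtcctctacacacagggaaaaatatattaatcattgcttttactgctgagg
Col6a1: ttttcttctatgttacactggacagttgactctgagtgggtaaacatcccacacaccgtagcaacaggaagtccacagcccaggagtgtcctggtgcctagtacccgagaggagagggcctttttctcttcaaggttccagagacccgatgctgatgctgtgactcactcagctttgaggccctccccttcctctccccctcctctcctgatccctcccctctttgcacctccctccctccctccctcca
The Col1a2 window held 1 CCAAT and 2 GGGCGG, the Col3a1 window 1 TATAAA, and the Col6a1 window none of these letters. Of 38 windows of 35 collagen genes, GGGCGG stood in 22 (57.9%), against 32.7% of all 32851 windows of the same length. CCAAT stood in 13 (34.2%), against 33.9% of all windows, and TATAAA in 5 (13.2%), against 12.4%. A match describes letters in the window and is not a site of binding.

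The 368 cells analysed had at least 500 genes and 10000 RNA counts, with a median of 1016776 counts (10805 to 17845616). Levels are CPM (counts scaled to a common library total) of the counts summed over the cells of a mouse and group, and they are not corrected for gene length, so they are compared between groups and not between genes. In mouse 2, the deepest cell held 75.3% of all liver counts and 63.2% of all EpCAM+ counts. Reads in the 1125 olfactory receptor genes (Olfr), which these cells are not known to use, summed to 939 ± 599 CPM in CD45+ cells, 3092 ± 2144 CPM in liver cells (n = 2) and 367 ± 291 CPM in GFP+ primary cells. Leukocyte markers summed to 19403 CPM in CD45+ cells and 456 CPM in GFP+ primary cells (1234 CPM in mouse 3), and epithelial markers to 18431 CPM in EpCAM+, 20345 CPM in GFP+EpCAM+ and 4340 CPM in GFP+ primary cells. Hepatocyte markers summed to 27.97 CPM in GFP+ liver cells and kidney tubule markers to 9.42 CPM in GFP+ kidney cells. The 8 fibroblast markers (Pdgfra, Pdgfrb, Dcn, Lum, Thy1, Pdpn, Fap and Dpt) summed to 3872 CPM in GFP+ primary cells (917 to 7588 over the mice).

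In sums over the cells of a mouse, fibrillar collagen RNA was low in every sort that used a surface protein. It was high in GFP+ cells of the primary tumour and of the 4 metastasis sites. The exception was the liver of mouse 2, which at 198 CPM lay within the range of the surface-protein sorts. The 11 fibrillar chains summed to 5333 ± 4375 CPM in peritoneum (SD, n = 3 mice), 2193 ± 655 CPM in kidney, 2248 ± 2899 CPM in liver and 8287 ± 1265 CPM in spleen (n = 2 each). They summed to 146 ± 118 CPM in CD45+, 141 ± 107 CPM in EpCAM+ and 322 ± 183 CPM in GFP+EpCAM+ cells, against 3460 ± 2499 CPM in GFP+ primary cells (n = 3 each). The highest mouse of any surface-protein sort held 472 CPM, against 1636, 6309 and 2436 CPM in GFP+ primary cells of mice 1, 2 and 3. The sums of those sorts thus did not overlap with GFP+ primary cells. Such sums give deep cells more weight, and medians over cells did overlap. In mice 1, 2 and 3 the median was 8.24, 821 and 599 CPM in EpCAM+ cells, against 83.9, 3622 and 1040 CPM in GFP+ primary cells. Of the sites, spleen with 9181 and 7393 CPM in mice 2 and 3 lay above all 3 primary values, but 64.1% of the fibrillar reads of mouse 2 came from 1 cell with 26786 CPM. Without that cell, the deepest of its sample, spleen of mouse 2 held 4221 CPM, against 6309 CPM in GFP+ primary cells of the same mouse with every cell kept. That primary sum also leaned on 1 cell with 13005 CPM, which gave 44.2% of its fibrillar reads. The 2 values are thus not treated alike and do not order the 2 tissues. The ranges of peritoneum (602 to 9233 CPM), kidney (1730 to 2656) and liver (198 to 4298) overlapped with the primary tumour and with each other.

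The other 2 classes differed in how far they followed this pattern. The 25 other chains did so, with 51.8 ± 43.6 CPM in CD45+, 52.1 ± 6.10 CPM in EpCAM+ and 188 ± 151 CPM in GFP+EpCAM+ cells, against 1492 ± 867 CPM in GFP+ primary cells. The 8 basement membrane chains stood between 108 ± 17.7 CPM in peritoneum and 209 ± 254 CPM in liver among the metastasis sites. Among the sorts of the primary tumour, only CD45+ cells were apart, at 12.97 ± 8.13 CPM, while EpCAM+ cells with 142 ± 74.1 CPM, GFP+EpCAM+ cells with 133 ± 89.5 CPM and GFP+ primary cells with 189 ± 42.4 CPM overlapped. Without 1 cell of GFP+ primary mouse 1, described below, the fibrillar sum of that mouse was 857 CPM in place of 1636 CPM and the sum of its other chains 307 CPM in place of 560 CPM. Other chains in GFP+EpCAM+ cells of mouse 3 stood at 336 CPM, above those 307 CPM.

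**Figure D1:**
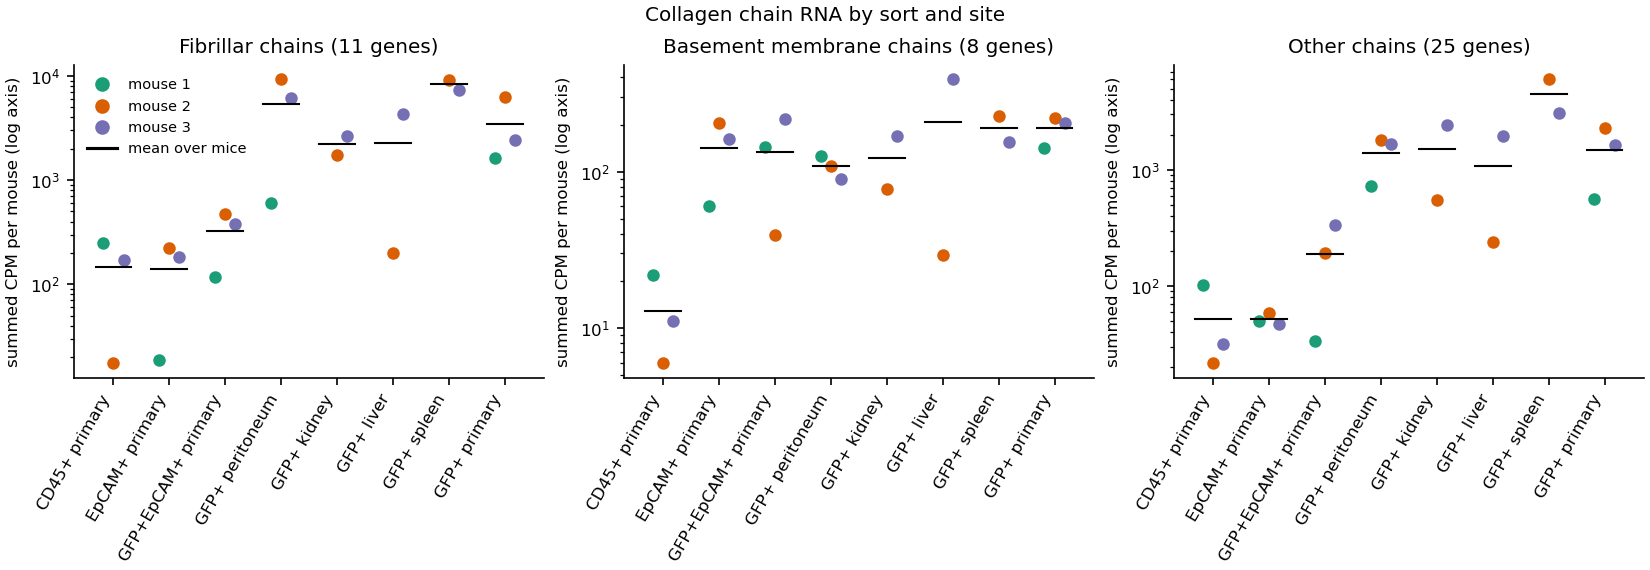
Summed CPM of fibrillar, basement membrane and other collagen chains (1 panel each, log axis) in each group; points are mice and lines are means over mice. Fibrillar sums of the CD45+, EpCAM+ and GFP+EpCAM+ sorts all lie under 473 CPM and those of GFP+ primary cells between 1636 and 6309 CPM, while basement membrane sums of EpCAM+, GFP+EpCAM+ and GFP+ primary cells overlap.

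CD45+ cells were compared with GFP+ primary cells to set the leukocytes of the tumour against cells of the injected line. Col3a1, the chain of type III collagen, stood at 3.88, 6.21 and 19.97 CPM in CD45+ cells of mice 1, 2 and 3, against 1016, 3690 and 1068 CPM in GFP+ primary cells. Every CD45+ value was far under every GFP+ value. Col3a1 fell in CD45+ cells (log2 difference -7.36, SE 1.69, adjusted p = 0.0309 by edgeR's quasi-likelihood test with Benjamini-Hochberg adjustment over 19703 genes). Col6a1, a chain of the beaded filaments of type VI, stood at 4.84, 2.34 and 3.08 CPM in CD45+ cells, against 338, 585 and 650 CPM in GFP+ primary cells. Its values did not overlap between the sorts. Without 1 cell described below, GFP+ primary cells of mouse 1 held 197 CPM of Col6a1 and 608 CPM of Col3a1, still above every CD45+ value. Col6a1 also fell (log2 difference -7.47, SE 1.78, edgeR adjusted p = 0.0387).

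Of the 42 collagen genes tested, edgeR called these 2 lower and 0 higher, where 0.188% of all genes were called lower and 0.629% higher. At an unadjusted p under 0.05 it marked 15 collagen genes lower (11.4% of all genes) and 1 higher (5.89%), Col11a2, a minor fibrillar chain with a mean of 2.72 ± 4.12 CPM in CD45+ cells, against 0.218 ± 0.160 CPM in GFP+ primary cells. Of the fibrillar chains 1 of 11 was called, of the basement membrane chains 0 of 8 (edgeR; 3 lower and 0 higher at an unadjusted p under 0.05) and of the other chains tested 1 of 23. The type VI partners Col6a2 (1.78 ± 0.396 CPM in CD45+ cells, against 323 ± 255 CPM in GFP+ primary cells, log2 difference -7.75) and Col6a3 (6.96 ± 7.03 CPM in CD45+ cells, against 441 ± 414 CPM in GFP+ primary cells, log2 difference -6.64) had edgeR adjusted p of 0.0536 and 0.0691. In 12 of the 42 genes every mouse was lower in CD45+ cells, a share to be read against 11.6% of all genes: Col1a1, Col1a2, Col3a1, Col5a1, Col5a2, Col4a1, Col18a1, Col6a1, Col6a2, Col6a3, Col16a1 and Col8a1. In 0 genes every mouse was higher (6.55% of all genes). The median log2 difference of the collagen genes was -0.87 and that of all genes tested 0.20. With DESeq2's scaling the median of all genes was 0.93 and that of the collagen genes -0.12.

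Both calls depend on which mice enter: without mouse 2, and likewise without mouse 3, edgeR called 0 collagen genes. Without mouse 1 it called 3, Col1a1 being the third. DESeq2 called 11 collagen genes lower, where it called 5.76% of all genes with an adjusted p lower (0 collagen genes higher, 5.05% of all), and limma on means over cells (log2 of CPM + 1) called 7, where it called 2.75% (0 higher, 1.2% of all). When the tumour cells were chosen by their DNA, or only cells with under 1000 CPM of Olfr reads were used, Col3a1 was the only collagen gene that edgeR called in this comparison.

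The type I chains, which together make the main collagen of connective tissue, were uneven in CD45+ cells. Col1a1 stood at 131, 2.90 and 6.21 CPM in CD45+ cells of mice 1, 2 and 3, against 296, 1649 and 982 CPM in GFP+ primary cells (log2 difference -5.49, SE 1.72, edgeR adjusted p = 0.116). Its partner Col1a2 stood at 82.8, 3.18 and 125 CPM in CD45+ cells, against 187, 526 and 168 CPM in GFP+ primary cells. No CD45+ value reached the lowest GFP+ value for either gene, but those of mouse 1 for Col1a1 and mice 1 and 3 for Col1a2 came within a small factor of it. Without the GFP+ primary cell of mouse 1 described below, Col1a2 in that sample was 31.2 CPM, below the CD45+ values of mice 1 and 3. Of the fibrillar reads of CD45+ mouse 1, 51.4% came from 1 cell with 11297 CPM of Col1a1 and 8.53 CPM each of Col1a2 and Col3a1. A further 32.3% came from a cell with 3166 CPM of Col1a2 and 9.57 CPM of Col1a1. Olfr reads in these cells stood at 4810 and 3909 CPM. In mouse 3, 72.96% of fibrillar reads came from a cell with 1506 CPM of Col1a2 and 614 CPM of Olfr reads. The part of the Olfr background in the type I values was not tested.

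Among genes that act on collagen, from lists of general knowledge, 2 were called lower in CD45+ cells and 0 higher (0.188% and 0.629% of all genes). Pcolce, an enhancer of procollagen processing, stood at 3.58 ± 3.62 CPM in CD45+ cells, against 1803 ± 1238 CPM in GFP+ primary cells (log2 difference -8.73, edgeR adjusted p = 0.0272), and Sparc, a collagen-binding matrix protein, at 18.6 ± 8.41 CPM in CD45+ cells, against 3248 ± 3036 CPM in GFP+ primary cells (log2 difference -7.28, edgeR adjusted p = 0.0309). Both belong to the 13 processing and cross-linking genes. Of 19 folding and modification genes 0 were called by edgeR, with 5 lower and 0 higher at an unadjusted p under 0.05 (11.4% and 5.89% of all genes). One of these, the collagen chaperone Serpinh1, stood at 1.42 ± 0.4657 CPM in CD45+ cells, against 291 ± 211 CPM in GFP+ primary cells (log2 difference -7.88, edgeR adjusted p = 0.0536). The prolyl hydroxylase subunit P4hb, which also serves other proteins, stood at 2475 ± 2584 CPM in CD45+ cells, against 6749 ± 4097 CPM in GFP+ primary cells (edgeR adjusted p = 0.477). Of 5 collagenases, 10 receptors (9 tested) and 15 basement membrane partners, edgeR called 0 in this comparison, with 2, 1 and 0 higher and 0, 0 and 4 lower at an unadjusted p under 0.05.

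EpCAM+ cells were compared with GFP+ primary cells. The main chains of types I, III, V and VI (Col1a1, Col1a2, Col3a1, Col5a1, Col6a1, Col6a2 and Col6a3) stood lower in every mouse, yet none passed the test. Without the GFP+ primary cell of mouse 1 described below, that sample held 31.2 CPM of Col1a2 in place of 187 CPM. This is below the EpCAM+ values of mice 2 and 3, so Col1a2 then overlapped. Col6a2 there was 2.45 CPM in place of 37.9 CPM. Col6a1 stood at 5.94, 5.43 and 8.87 CPM in EpCAM+ cells of mice 1, 2 and 3, against 338, 585 and 650 CPM in GFP+ primary cells (log2 difference -6.49, SE 1.70, edgeR adjusted p = 0.343). Col3a1 stood at 4.24, 85.5 and 84.1 CPM in EpCAM+ cells, against 1016, 3690 and 1068 CPM in GFP+ primary cells (log2 difference -5.26, SE 1.54, edgeR adjusted p = 0.343). Col5a1, a chain that regulates the width of type I fibrils, stood at 0.771, 5.04 and 0.479 CPM in EpCAM+ cells, against 59.996, 326 and 153 CPM in GFP+ primary cells (edgeR adjusted p = 0.343). For all 3 genes the sorts did not overlap. Of 42 collagen genes, edgeR called 0 higher (0.0% of all genes) and 0 lower (0.0%), with 0 higher and 12 lower at an unadjusted p under 0.05 (3.09% and 8.36% of all genes). DESeq2 called 10 collagen genes lower and 0 higher (4.65% and 2.46% of all genes), limma called 0 (0.00508% in either direction), and edgeR fitted to these 2 sorts alone called Col3a1. With every cell kept, in 12 genes, Col1a2 among them, every mouse was lower in EpCAM+ cells (7.43% of all genes) and in 0 higher (3.38%).

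GFP+EpCAM+ cells, the tumour cells that also carry EpCAM, were compared with GFP+ primary cells. Col6a2, a type VI chain, stood at 0.187, 0.896 and 4.21 CPM in GFP+EpCAM+ cells of mice 1, 2 and 3, against 37.9, 399 and 531 CPM in GFP+ primary cells (log2 difference -7.50, SE 1.94, edgeR adjusted p = 0.275). Its mouse 1 value in GFP+ primary cells was 2.45 CPM without the cell of that mouse described below. Col5a1 stood at 0.787, 1.22 and 1.12 CPM in GFP+EpCAM+ cells, against 59.996, 326 and 153 CPM in GFP+ primary cells (log2 difference -7.13, SE 1.93, edgeR adjusted p = 0.275). Col5a1 was even in GFP+EpCAM+ cells and did not overlap. Col3a1 stood at 1.05, 222 and 186 CPM in GFP+EpCAM+ cells, against 1016, 3690 and 1068 CPM in GFP+ primary cells (edgeR adjusted p = 0.340). EdgeR called 0 of 42 collagen genes (0.0% of all genes in either direction), with 1 higher and 8 lower at an unadjusted p under 0.05 (3.82% and 6.34% of all genes). The higher one was Col14a1, a fibril-associated chain, at 28.1 CPM in mouse 3 and 1.12 and 0 CPM in mice 1 and 2 of GFP+EpCAM+ cells, against 0.284 to 2.05 CPM in GFP+ primary cells; without mouse 3 its log2 difference was -0.19. DESeq2 called 6 collagen genes lower and 0 higher (3.53% and 2.93% of all genes) and limma 6 lower and 0 higher (0.147% and 0.152%). In 11 genes every mouse was lower (9.59% of all genes) and in 0 higher (2.0%). The 3 comparisons with GFP+ primary cells share those cells.

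Much of the collagen in GFP+EpCAM+ cells came from single cells. In mouse 2, 97.5% of fibrillar reads came from 1 cell with 2692 CPM of fibrillar chains, 11263 CPM of fibroblast markers and 288 CPM of epithelial markers. In mouse 3, 73.3% came from a cell with 1142 CPM of fibrillar chains, 3180 CPM of fibroblast markers and 15970 CPM of epithelial markers. Both met the DNA limits of the tumour line given below, with an imbalance of 0.331 and 0.258. Their similarity is partly to themselves, as they are among the 27 cells whose mean sets the reference, and all 27 met the limits. Weight on 1 cell was not limited to this sort. A single cell gave 59.3% of the fibrillar reads in liver mouse 3, 44.2% in GFP+ primary mouse 2 and 39.7% in kidney mouse 2.

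A comparison of EpCAM+ with GFP+EpCAM+ cells asks what requiring the tumour label changes. EdgeR called 0 of 42 collagen genes (0.0% of all genes in either direction), with 1 higher and 2 lower at an unadjusted p under 0.05 (5.86% and 7.88% of all genes). Col6a1 stood at 5.94, 5.43 and 8.87 CPM in EpCAM+ cells, against 0.487, 126 and 229 CPM in GFP+EpCAM+ cells (log2 difference -4.55, SE 1.55, edgeR adjusted p = 0.287), so mouse 1 differed in direction from mice 2 and 3. DESeq2 called 2 genes lower, Col16a1 and Col6a1 (4.44% of all genes), and 0 higher (2.32%), and limma called 0 (0.0%). In 7 genes every mouse was higher in EpCAM+ cells (14.1% of all genes) and in 0 lower (3.28%). Those 7, with at most 4.78 CPM in any EpCAM+ sample, were Col5a3, Col24a1, Col6a5, Col12a1, Col19a1, Col25a1 and Col28a1.

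Basement membrane chains were less tied to a sort. In CD45+ cells Col18a1, whose chain holds the endostatin fragment, stood at 0.910, 0.585 and 1.60 CPM (log2 difference from GFP+ primary cells -5.74, SE 1.86, edgeR adjusted p = 0.130). Col18a1 stood at 41.6, 60.5 and 143 CPM in EpCAM+ and 2.40, 23.98 and 63.6 CPM in GFP+EpCAM+ cells of mice 1, 2 and 3, against 43.8, 84.6 and 44.03 CPM in GFP+ primary cells. The 3 tumour sorts overlapped and CD45+ cells lay apart. Col4a1, a main chain of type IV, stood at 1.89, 63.6 and 4.31 CPM in EpCAM+ and 138, 0.932 and 31.4 CPM in GFP+EpCAM+ cells, against 68.6, 54.8 and 93.7 CPM in GFP+ primary cells. Its partner Col4a2 stood at 0.424, 74.8 and 11.6 CPM in EpCAM+ and 0.262, 12.4 and 115 CPM in GFP+EpCAM+ cells, against 4.11, 74.5 and 59.1 CPM in GFP+ primary cells. These 2 genes start 21 bases apart on opposite strands of chromosome 8; the sources used here do not say whether strand was used in counting, so reads over their starts are uncertain. The chains Col4a3 and Col4a5 and the linker collagen Col15a1 reached at most 16.3 CPM in any mouse and group other than liver mouse 3, where Col4a3 stood at 52.3 CPM and Col15a1 at 112 CPM.

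GFP+ cells of each metastasis site were compared with GFP+ primary cells to ask how tumour cells differ by site. EdgeR called 0 of 44 collagen genes in peritoneum (0.0% of all genes higher and 0.0091% lower), kidney (0.0% and 0.0%), liver (0.00455% and 0.0091%) and spleen (0.0% and 0.0%), and 0 for the mean of the 4 sites (0.0136% and 1.48%). At an unadjusted p under 0.05 it marked 0 higher and 0 lower in peritoneum (2.62% and 3.47% of all genes), 1 and 1 in kidney (2.95% and 3.06%), 2 and 6 in liver (6.67% and 7.56%), 2 and 0 in spleen (2.68% and 3.48%) and 0 and 3 for the mean of sites (1.39% and 7.8%). DESeq2 called 1 higher and 4 lower in liver (3.28% and 3.8% of all genes) and 0 in peritoneum (0.582% and 0.619%), kidney (0.795% and 0.607%), spleen (0.637% and 0.733%) and the mean of sites (0.486% and 1.05%). Limma called 0 in all 5 (0.00455% of all genes higher in liver and 0.0% elsewhere). The 5 comparisons share the GFP+ primary cells.

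Within peritoneum the mice differed widely. Col1a1 stood at 161, 4211 and 2487 CPM in peritoneum of mice 1, 2 and 3, against 296, 1649 and 982 CPM in GFP+ primary cells (log2 difference 0.96, SE 0.98, edgeR adjusted p = 1.00). Col1a2 stood at 40.99, 1615 and 1040 CPM in peritoneum, against 187, 526 and 168 CPM in GFP+ primary cells (log2 difference 1.45, SE 1.09, edgeR adjusted p = 1.00). Both genes were lower in peritoneum of mouse 1 and higher in peritoneum of mice 2 and 3. Without the cell described below, GFP+ primary cells of mouse 1 held 168 CPM of Col1a1 and 31.2 CPM of Col1a2, so that Col1a2 was then higher in peritoneum of all 3 mice. Epithelial markers summed to 8696, 135 and 344 CPM in the same peritoneal cells, and to 9933, 2166 and 920 CPM in GFP+ primary cells; their part in the collagen values was not tested. Col4a1 was the only collagen gene whose groups did not overlap, with 18.3, 33.96 and 33.2 CPM in peritoneum, against 68.6, 54.8 and 93.7 CPM in GFP+ primary cells (log2 difference -1.76, SE 1.37, edgeR adjusted p = 1.00; every mouse lower in 1.53% and higher in 4.89% of all genes).

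In spleen 7 of 44 collagen genes stood higher in every mouse (6.76% of all genes) and 0 lower (6.19%), and none passed the test. In mouse 2, 64.1% of the fibrillar reads came from the cell named above. Col6a1 stood at 2757 and 1487 CPM in spleen of mice 2 and 3, against 338, 585 and 650 CPM in GFP+ primary cells of mice 1, 2 and 3 (log2 difference 1.96, SE 1.07, edgeR adjusted p = 0.860). Col1a1 stood at 3168 and 2567 CPM in spleen, against 296, 1649 and 982 CPM in GFP+ primary cells (log2 difference 1.35, SE 1.07, edgeR adjusted p = 0.999). Col16a1, a fibril-associated chain, stood at 42.5 and 49.8 CPM in spleen, against 3.40, 4.76 and 3.79 CPM in GFP+ primary cells (log2 difference 3.32, SE 1.68, edgeR adjusted p = 0.814). None of these 3 genes overlapped between the groups, and none passed. The collagen median was 0.85 on the log2 scale, against 0.01 for all genes. Fibroblast markers summed to 6988 CPM in spleen (4650 and 9325) and 3872 CPM in GFP+ primary cells, and epithelial markers to 284 and 4340 CPM; their part was not tested.

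The liver gave 8 cells in each of mice 2 and 3, whose counts summed to 19922000 and 535652. Col1a2 stood at 3.56 and 31.7 CPM in liver of mice 2 and 3, against 187, 526 and 168 CPM in GFP+ primary cells (log2 difference -5.37, SE 1.55, edgeR adjusted p = 0.198). Col8a1, a network-forming chain, stood at 1.31 and 1.87 CPM in liver, against 34.7, 279 and 38.96 CPM in GFP+ primary cells (log2 difference -7.08, SE 1.95, edgeR adjusted p = 0.193). Both were lower in every mouse, and with the mouse as a block edgeR called these 2 genes. Col3a1 stood at 14.6 and 2843 CPM in liver, a spread wider than that of GFP+ primary cells, and without mouse 3 edgeR called Col1a1 and Col3a1 lower. In 3 of 44 genes every liver value was lower (15.7% of all genes) and in 10 higher (13.4%). The 10 were Col4a4, Col4a6, Col6a4, Col6a5, Col14a1, Col16a1, Col19a1, Col22a1, Col17a1 and Col28a1. Olfr reads summed to 1576 to 4607 CPM in liver and 123 to 688 CPM in GFP+ primary cells, and their part was not tested.

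In kidney Col11a1, a minor fibrillar chain, stood at 72.8 and 11.7 CPM in mice 2 and 3, against 4.34, 5.03 and 0.616 CPM in GFP+ primary cells (log2 difference 4.01, SE 1.76, edgeR adjusted p = 0.670). Col27a1, a fibrillar chain known from cartilage, stood at 116 and 41.8 CPM in kidney, against 3.49, 0.776 and 24.1 CPM in GFP+ primary cells (log2 difference 2.84, SE 1.63, edgeR adjusted p = 0.922). Leukocyte markers summed to 42.2 and 3682 CPM, epithelial markers to 11280 and 2631 CPM and hepatocyte markers to 698.5 and 47.6 CPM in kidney of mice 2 and 3. Their part in the kidney values was not tested. Both genes stood higher in each kidney sample, though not past the test; 3 of 44 genes did so (6.84% of all genes) and 2 were lower in each (6.16%). Col3a1 stood at 343 and 1333 CPM in kidney, within or below the range of GFP+ primary cells. For the mean of the 4 sites, Col7a1, the anchoring fibril chain, was nearest to a call at 3.73 CPM in the sites and 17.4 ± 25.1 CPM in GFP+ primary cells (log2 difference -4.03, SE 1.23, edgeR adjusted p = 0.0792). Without mouse 1, and likewise with cells chosen by DNA, Col7a1 was called, while 46.3 CPM in mouse 3 made up most of its primary level (0.945 and 4.91 CPM in mice 1 and 2). Of the 62 genes of the lists of folding, processing, receptors, collagenases and basement membrane partners, edgeR called 1 lower in the mean of sites, near the share of all genes (1.48%). This was the gelatinase Mmp9, at 106 CPM in the sites, against 717 ± 976 CPM in GFP+ primary cells (log2 difference -4.12, SE 0.93, edgeR adjusted p = 0.00485). Its primary SD exceeded the mean. Leukocyte markers summed to 123, 10.2 and 1234 CPM in GFP+ primary cells of mice 1, 2 and 3. In the sites their means ranged between 88.5 CPM in spleen and 1862 CPM in kidney. Their part in the Mmp9 values was not tested.

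The sums over a mouse hide a wide spread between cells. Fibrillar chains reached at least 1000 CPM in 5 of 56 CD45+ cells (8.93%, exact 95% interval 2.96 to 19.6%), 6 of 25 EpCAM+ cells (24%, 9.36 to 45.1%) and 2 of 31 GFP+EpCAM+ cells (6.45%, 0.791 to 21.4%). They did so in 46 of 85 cells of peritoneum (54.1%), 29 of 44 of kidney (65.9%), 10 of 16 of liver (62.5%) and 30 of 35 of spleen (85.7%), and in 35 of 76 GFP+ primary cells (46.1%, 34.5 to 57.9%). Such intervals cover counting error only. In mice 1, 2 and 3 these were 7 of 39, 22 of 24 and 17 of 22 cells of peritoneum, against 7 of 31, 14 of 18 and 14 of 27 GFP+ primary cells, so mouse 1 was low in both. At 100 CPM the shares were 30.4% in CD45+, 48% in EpCAM+, 38.7% in GFP+EpCAM+, 77.6% in peritoneum, 86.4% in kidney, 93.8% in liver, 100% (35 of 35) in spleen and 71.1% in GFP+ primary cells. With every cell thinned to 10000 counts, at least 10 fibrillar reads were found in 8.93% of CD45+, 24% of EpCAM+, 6.45% of GFP+EpCAM+, 52.9% of peritoneal, 59.1% of kidney, 62.5% of liver, 85.7% of spleen and 50% of GFP+ primary cells. CD45+ cells were sorted as leukocytes, which should lack fibrillar collagen. Their median depth was 784903 counts, against 1614520 counts in GFP+ primary cells. The median of Olfr reads over cells was 835 CPM in CD45+, 214 CPM in GFP+ primary and 2141 CPM in liver cells. Whether the CD45+ share comes from background reads, and whether it holds as a background for the other groups, was not tested.

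**Figure D2:**
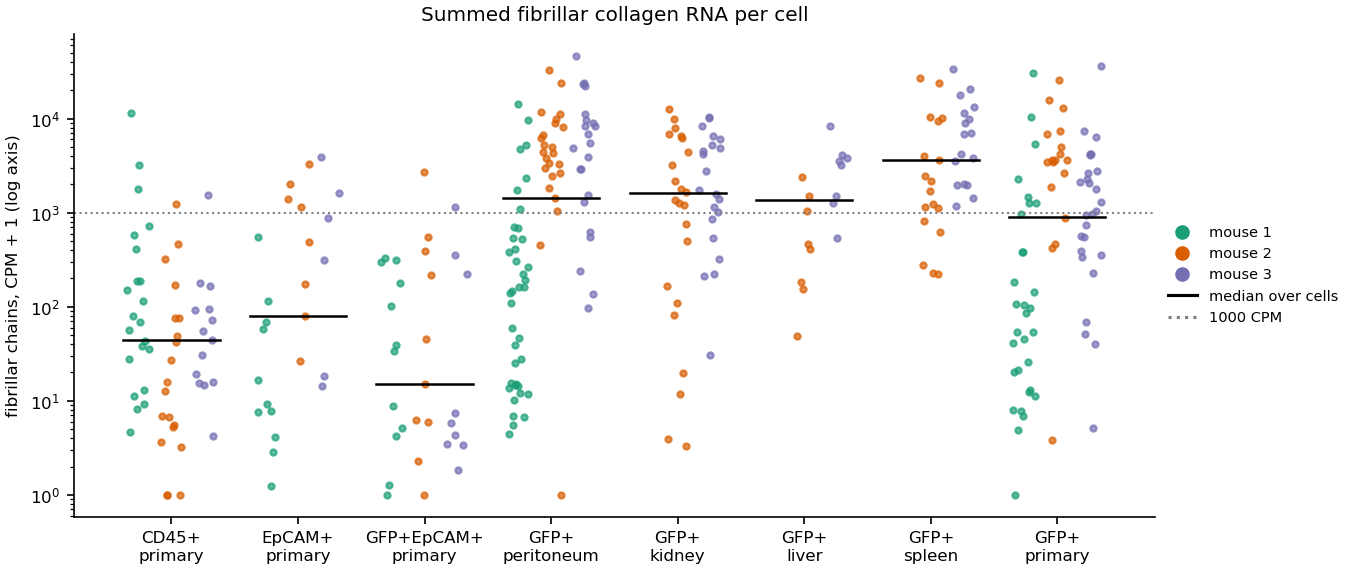
Summed CPM of the 11 fibrillar chains plus 1 (log axis) in each cell, by group and mouse; points are cells, black lines are medians over cells and the dotted line marks 1000 CPM. The share of cells at 1000 CPM is 8.93% in CD45+, 24% in EpCAM+ and 6.45% in GFP+EpCAM+ cells and between 46.1% and 85.7% in the GFP+ sorts of the 5 tissues.

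Fibrillar collagen and epithelial markers were often high in different GFP+ cells, though not in liver. In peritoneum, 41 of 85 cells had at least 1000 CPM of fibrillar chains without 1000 CPM of the 7 epithelial markers (Epcam, Cdh1, Krt7, Krt8, Krt18, Krt19 and Muc1), 27 had the reverse, 5 had both and 12 neither. The same counts were 25, 10, 4 and 5 of 44 cells in kidney, 4, 5, 6 and 1 of 16 in liver and 26, 5, 4 and 0 of 35 in spleen. They were 1, 29, 1 and 0 of 31 in GFP+EpCAM+ cells and 27, 32, 8 and 9 of 76 in GFP+ primary cells. In the EpCAM+ sort they were 0, 17, 6 and 2 of 25, so each collagen-rich cell there also reached 1000 CPM of epithelial markers. Spearman's rho between fibrillar and epithelial CPM was -0.67 over 85 cells of peritoneum, -0.49 over 44 of kidney, -0.38 over 16 of liver, -0.39 over 35 of spleen and -0.71 over 76 GFP+ primary cells. Within mice 1, 2 and 3 it was -0.73, -0.33 and -0.16 in peritoneum and -0.58, -0.68 and -0.44 in GFP+ primary cells. With fibroblast markers rho ranged between 0.40 in spleen and 0.81 in peritoneum, and it was 0.61 in GFP+ primary cells. The other chains followed the fibrillar ones at 0.74 to 0.89 in these 5 tissues and the basement membrane chains at 0.32 to 0.56. These values describe cells that share a library preparation and differ in depth. In EpCAM+ cells rho of fibrillar CPM with depth was -0.76 and with Olfr reads 0.62, and in CD45+ cells -0.57 and 0.74; in kidney they were -0.45 and 0.43, and in peritoneum -0.17 and 0.08 over all cells but -0.43 and 0.45 within mouse 1. In GFP+ primary cells they were 0.03 and -0.15 over all cells and -0.37 and 0.23 within mouse 1.

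The DNA of the same cells was used to ask whether collagen-rich cells carried the chromosome profile of the tumour line. Imbalance is the SD over 19 autosomes of a chromosome's log2 share of DNA counts relative to the median CD45+ cell, and similarity is the correlation of that profile with the mean of GFP+EpCAM+ cells. The limits used for both were chosen with the data seen. Over the 5 tissues, 123 GFP+ cells with at least 1000 CPM of fibrillar chains had 50000 DNA counts, and 111 of them (90.2%, exact 95% interval 83.6 to 94.9%) had an imbalance of at least 0.25 with a similarity of at least 0.5. Of all 214 GFP+ cells with that DNA depth, 190 met both limits. In peritoneum, 40 of 40 collagen-rich cells met both limits (imbalance 0.295 to 0.495), in kidney 19 of 25 (8 of 14 in mouse 3), in liver 4 of 5, in spleen 23 of 25 and in GFP+ primary cells 25 of 28. Of the 5 collagen-rich CD45+ cells 0 met both, and their imbalance was 0.0305 to 0.104. These cells are among the 53 CD45+ cells whose median sets the baseline, so their imbalance is measured partly against themselves. Of the 5 collagen-rich EpCAM+ cells with DNA 2 met both limits. The rank correlation between imbalance and fibrillar CPM was 0.51 over 74 peritoneum cells but 0.36, 0.04 and 0.14 within mice 1, 2 and 3, and 0.20 over 62 GFP+ primary cells. The rank correlation with similarity was 0.42 in peritoneum and -0.47 in GFP+ primary cells.

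A single GFP+ primary cell stood apart. Cell 40 of mouse 1 had 30501 CPM of fibrillar chains, an imbalance of 0.0393 and a similarity of -0.31, and 9854 CPM of smooth muscle and pericyte markers (Acta2, Tagln, Myh11, Rgs5 and Cspg4). It gave 48.99% of the fibrillar reads of GFP+ primary mouse 1, and without it Col1a2 there was 31.2 CPM in place of 187 CPM and Col5a1 18.6 CPM in place of 59.996 CPM. It was the only GFP+ primary cell with both a fibrillar level over 1000 CPM and an imbalance under 0.1. In kidney of mouse 3, 1 of 14 cells with at least 1000 CPM of fibrillar chains also had an imbalance under 0.1, at 0.0491. Kidney levels without that cell alone are not given here.

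**Figure D3:**
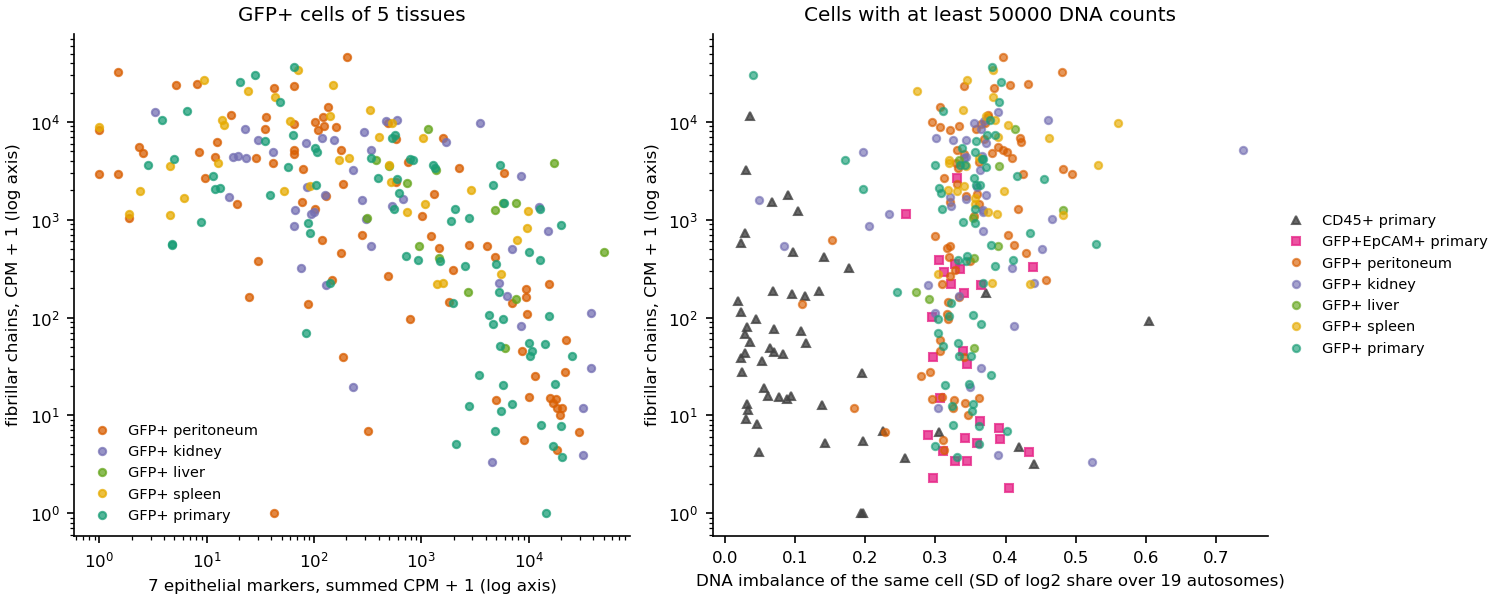
Left, fibrillar chains against the 7 epithelial markers (CPM + 1, log axes) in GFP+ cells of 5 tissues; right, fibrillar chains (CPM + 1, log axis) against DNA imbalance of the same cell in CD45+, GFP+EpCAM+ and GFP+ cells with 50000 DNA counts. Points are cells. The 5 CD45+ cells over 1000 CPM have an imbalance of at most 0.104, and they are among the CD45+ cells whose median sets the baseline. Of 123 GFP+ cells over 1000 CPM, 111 have at least 0.25 with a similarity of at least 0.5.

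Col1a1 and Col1a2 encode the partner chains of type I collagen, yet their shares of the reads differed between cells. The Col1a2 share of the reads of both genes, not corrected for length, was under 5% in 74 of 183 GFP+ cells of the 5 tissues with at least 20 reads of the pair (40.4%) and at least 25% in 65 (35.5%). With at least 100 reads these were 57 (41.3%) and 44 (31.9%) of 138 cells. The median of this share varied between mice of 1 tissue. It was 17.2%, 16.5% and 30.1% in peritoneum of mice 1, 2 and 3, 14.2% and 15.5% in kidney, 18.2% and 0.633% in liver and 2.52% and 28.6% in spleen of mice 2 and 3, and 7.75%, 27.8% and 1.78% in GFP+ primary cells of mice 1, 2 and 3. In 34 of 256 GFP+ cells Col1a1 had at least 20 reads and Col1a2 under 3, and the reverse held in 1. The share had a rho of 0.04 with fibrillar CPM and -0.05 with depth over the 183 cells. Extreme shares were not limited to GFP+ cells. In the 3 CD45+ cells with at least 100 reads of the pair, the share was 0.0754%, 99.7% and 99.955%. A floor on reads does not show how many RNA molecules a cell held. The part of library preparation in these shares was not tested.

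**Figure D4:**
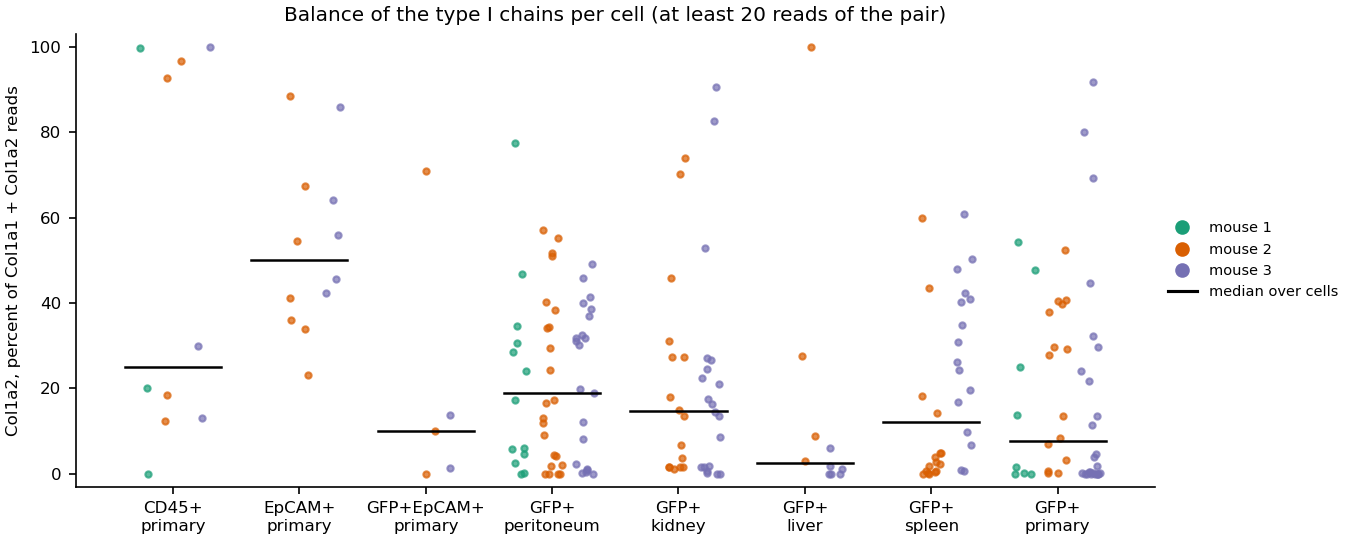
Col1a2 reads as a percent of Col1a1 plus Col1a2 reads in each cell with at least 20 reads of the pair, by group; points are cells, colours are mice and lines are medians over cells. Cells near 0% stand beside cells over 25% in each GFP+ sort. The lines pool mice whose medians differ, such as 2.52% and 28.6% in spleen of mice 2 and 3.

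Other pairs of chains were tied to different degrees. Over 256 GFP+ cells of the 5 tissues, rho was 0.88 between Col1a1 and Col3a1 (0.72, 0.85 and 0.80 within mice 1, 2 and 3), 0.76 between Col1a1 and Col6a3 and 0.64 between Col1a1 and Col1a2. The type VI partners Col6a1 and Col6a2 had 0.69, the type IV partners Col4a1 and Col4a2 0.29, and Col1a1 with Col18a1 0.06. At least 20 reads of both type IV genes were found in 34 cells, Col4a1 at 20 with Col4a2 under 3 in 20 cells and the reverse in 7. Several low chains had a higher rho with the Olfr reads, at 0.57 for Col6a5, 0.53 for Col12a1, 0.53 for Col14a1, 0.52 for Col4a3 and 0.50 for Col24a1. Col6a5 averaged 24.7 CPM in 96 cells with at least 1000 CPM of Olfr reads and 3.44 CPM in the other 160. The same rho was 0.08 for Col1a1, 0.00 for Col3a1 and -0.11 for Col6a1. Levels of the low chains therefore stand beside that background, whose part in them was not tested. A further 16 collagen genes, Col2a1, Col11a2 and Col9a2 among them, reached at most 9.76 CPM in any group mean.

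**Figure D5:**
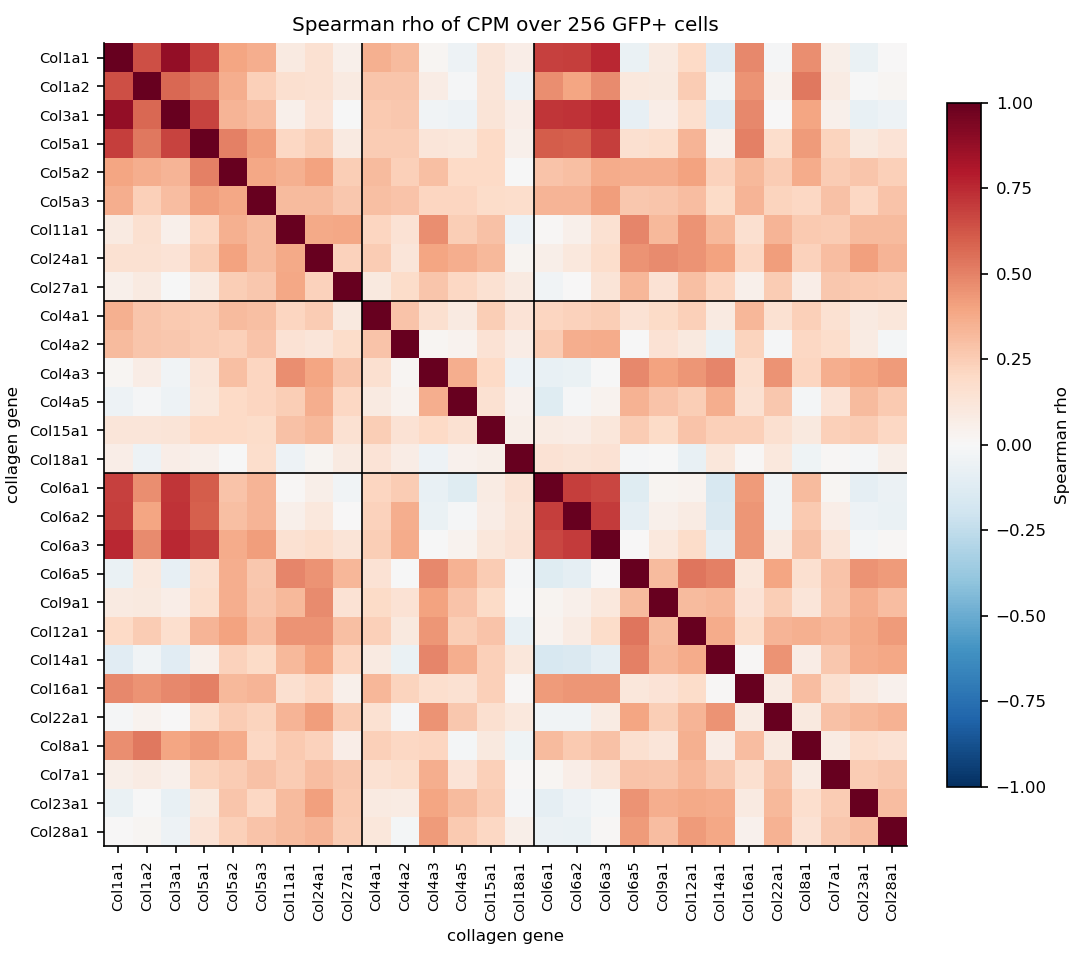
Spearman's rho of CPM between named collagen genes over 256 GFP+ cells of 5 tissues; colour gives rho. Col1a1, Col3a1, Col6a1, Col6a2 and Col6a3 form a block of high values (0.88 for Col1a1 with Col3a1), and Col18a1 is near 0 with Col1a1.

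The genes most like the fibrillar sum over 76 GFP+ primary cells, among 8134 genes compared by rho of CPM, were Sparc (0.83), Fstl1 (0.82), Rcn3 (0.77), Cthrc1 (0.74), Serpinf1 (0.72), Aebp1 (0.70), Ptn (0.69), Nrep (0.67), Rcn1 (0.67) and Pdgfrb (0.63). The lowest were Krt18 (-0.73), a keratin of simple epithelia, and Cystm1 (-0.64). Over the 368 cells of all groups Sparc (0.85), Fstl1 (0.83) and Ptn (0.76) led, and the chaperone Serpinh1 had 0.72.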

How the data were processed

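Expected counts of RNA per gene and counts of DNA in 5000 genomic bins were deposited by the authors. Per the submitters' processing notes, STAR, kallisto, Bowtie 1.0 and the build mm9 were used, without a role for each. Of the expected counts as deposited, 97.4% were whole numbers. Left out were spike-ins, which held 0.000348% of counts, and 4 repeated symbols. Of 420 single-cell libraries, 2 pairs from peritoneum of mouse 1 differed in DNA by less than sampling noise and were counted as 1 cell each. Their RNA differed by more (chi-square per degree of freedom 19.1 and 3.94), so that they are 1 cell each is uncertain. This left 418 cells, of which 368 passed the filter of 500 genes and 10000 counts and 316 of those had 50000 DNA counts.

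Counts were summed per mouse and group (535652 to 84359744), rounded to whole numbers and tested with edgeR 4.0.16 (R 4.3.3; TMM, default filter, quasi-likelihood), with 1 fit over the 4 sorts of the primary tumour and 1 over the GFP+ cells of 5 tissues. These held 19703 and 21988 genes at a coefficient of biological variation of 1.16 and 1.08. Benjamini-Hochberg adjustment ran over every gene of a comparison, at 0.05. The test was tested on simulated data. Alternatives were DESeq2 1.42.0, limma 3.58.1 on means over cells of log2 CPM with a pseudocount of 1 or 0.1, library totals without TMM, other filters on cells and genes, only the groups compared, the mouse as a block and leaving out a mouse. Cell values used pandas 2.3.3 and scipy 1.17.1, with exact 95% binomial intervals for shares.

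Same-numbered samples come from the same mouse, so the numbers pair the samples. Their deviations from group means correlated at 0.10, 0.01 and 0.06 for CD45+ with GFP+ primary cells and at 0.36, 0.13 and 0.17 for peritoneum. The fits reported hold no block.

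Every collagen gene is counted. A gene is named with values where its mean reached 10 CPM in at least 1 of the 8 groups or it passed a test, and a few genes of counts or singled out by their values were named after these were seen. The members and gene lists were chosen with earlier results of these data known. The 6 bulk libraries enter no test.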

Additional observations from a re-analysis of the deposited data

Results flagged for a closer look

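A test for an outlying cell marked 8 of 18 sets, each a chain class in a mouse and sort of at most 10 cells. The test's rate of about 1 in 20 by chance assumes normally distributed values. CPM of cells was skewed, with a median of 29.1 and a maximum of 2692 CPM for fibrillar chains in GFP+EpCAM+ mouse 2. The same cells also entered each class, so the 8 sets cannot be set against that rate. Fibrillar chains stood at 2692 CPM in cell 46 of GFP+EpCAM+ mouse 2 (the next of 10 cells held 547 CPM), and the other chains at 1062 CPM in the same cell (next 474 CPM). In GFP+EpCAM+ mouse 3, cell 62 held 1142 CPM of fibrillar chains (the next of 9 cells held 351 CPM) and 978 CPM of other chains (next 421 CPM), while cell 57 held 957 CPM of basement membrane chains (next 241 CPM). Cells 46 and 62 had Olfr reads of 67.7 and 40.4 CPM. In EpCAM+ mouse 3, cell 51 of 6 held 417 CPM of basement membrane chains (next 150 CPM). In liver mouse 2, cell 10 of 8 held 326 CPM of basement membrane chains (next 128 CPM) at 15352 RNA counts, and in liver mouse 3 cell 24 of 8 held 8415 CPM of fibrillar chains (next 4127 CPM) with 7076 CPM of Olfr reads.

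A bulk library of peritoneum cells, used in no comparison above, is GFP- by its title while its marker label reads GFP, so its sort is uncertain. It held 9465 CPM of fibrillar chains, against 2158 CPM in the bulk library of the same mouse titled GFP peritoneum. There is 1 library of each, with no replicate check, and in bulk samples fewer cells of a type and less RNA per cell cannot be told apart.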

How the results depend on the processing

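Calls of collagen genes were few and moved with the tool and the mice. Against 2 called for CD45+ cells by edgeR, DESeq2 called 11, limma 7 with either pseudocount, and edgeR without the largest library of each sum 1. For EpCAM+ cells, with 0 called, DESeq2 called 10 and edgeR with only the groups compared 1. For GFP+EpCAM+ cells, with 0, DESeq2 called 6 and limma 6 (pseudocount 1) or 5 (0.1). For EpCAM+ against GFP+EpCAM+ cells, with 0, DESeq2 called 2, and for liver, with 0, it called 5. With the mouse as a block the count was 2 in CD45+ cells and 2 in liver, and the block changed no other call. Leaving out a mouse gave 0 to 3 for CD45+ cells, 0 to 2 for liver and 0 to 1 for the mean of sites. In alternatives chosen after seeing the data, cells under 1000 CPM of Olfr reads gave 1 for CD45+ cells and 1 for the mean of sites (Col12a1), as did tumour cells chosen by DNA (Col3a1 and Col7a1). Where a fit without a mouse leaves a group with 1 sample, that sample is assumed to vary like the other groups. Causes were not tested.

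Class sums as means over cells were 388 CPM in CD45+, 760 in EpCAM+ and 3214.7 in kidney cells for fibrillar chains, 45.1 in CD45+, 158 in peritoneum and 241 in GFP+ primary cells for basement membrane chains, and 203 in CD45+ and 244 in EpCAM+ cells for other chains. Without the largest library they were 306 in EpCAM+ and 6977.5 in spleen cells (fibrillar), 126 in peritoneum (basement membrane) and 96.6 in EpCAM+ cells (other). With cells of few Olfr reads they were 6278.2 in spleen (fibrillar), 89.63 in peritoneum and 131 in spleen (basement membrane) and 17.6 in EpCAM+ cells (other), and with cells chosen by DNA 41.1 in EpCAM+ cells (other). At 1000 in place of 100 CPM the shares were 8.93% in CD45+, 24% in EpCAM+, 6.45% in GFP+EpCAM+, 54.1% in peritoneum, 65.9% in kidney, 62.5% in liver, 85.7% in spleen and 46.1% in GFP+ primary cells. The median Col1a2 share at 100 reads was 99.7% in CD45+, 1.49% in GFP+EpCAM+ and 7.75% in kidney cells.

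Log2 differences that turned sign, none of them called by edgeR in the fits reported, did so mostly in limma (pseudocount 0.1, then 1): Col12a1 in CD45+ (0.29, 0.13), in EpCAM+ (0.21, 0.0699) and in the mean of sites (0.36, 0.35), Col5a2 in EpCAM+ (0.74, 0.32), Col14a1 in GFP+EpCAM+ (-0.22, -0.0498) and Col6a1 in EpCAM+ against GFP+EpCAM+ cells (0.76, 0.40). With pseudocount 0.1 alone Col9a1 in spleen was at -0.0009 and Col8a1 in the mean of sites at 0.02. Leaving out a mouse moved Col14a1 between -0.19 (without mouse 3) and 5.40 (without mouse 1), and with cells of few Olfr reads Col22a1 in liver was at -6.0617. Of the counts, levels and shares recomputed under all alternatives, 48 moved and 225 did not.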

Other observations

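The lists of genes that serve collagen were also counted in the tumour sorts and sites. In EpCAM+ cells the chaperone Serpinh1 stood at 1.88 ± 0.320 CPM, against 291 ± 211 CPM in GFP+ primary cells (n = 3 each; log2 difference -7.60, edgeR adjusted p = 0.343), and in GFP+EpCAM+ cells at 83.5 ± 110 CPM (edgeR adjusted p = 0.886). Of 19 folding and modification genes edgeR marked 6 lower in EpCAM+ and 2 lower in GFP+EpCAM+ cells at an unadjusted p under 0.05 (8.36% and 6.34% of all genes), and called 0 in each. The prolyl hydroxylase subunit P4ha1 stood at 7.32 ± 4.27 CPM in EpCAM+ cells, against 134 ± 67.01 CPM in GFP+ primary cells (edgeR adjusted p = 0.379). In spleen Pcolce stood at 5884 ± 2899 CPM (n = 2), against 1803 ± 1238 CPM in GFP+ primary cells (edgeR adjusted p = 0.999), and Sparc at 6702 ± 3419 CPM, against 3248 ± 3036 CPM (edgeR adjusted p = 0.999).

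In the bulk libraries of mouse 1, Col1a2 stood at 2328 CPM in peritoneum cells titled GFP- and 462 CPM in GFP+ peritoneum, while Col6a1 stood at 370 and 332 CPM and Col4a1 at 70.01 and 43.1 CPM in the same pair. These are single libraries with no replicate check, and the marker label of the one titled GFP- reads GFP, so its sort is uncertain. In the bulk libraries titled GFP primary, fibrillar chains stood at 365 CPM in mouse 1 and 5617 CPM in mouse 2. The single-cell sums of GFP+ primary cells were 1636 and 6309 CPM in the same mice. The bulk value of mouse 1 lay within the range of the surface-protein sorts. The marker label of that library reads EpCam, so its sort is uncertain too.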
